A study of Homo sapiens with 2 samples.

Results

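A set of 43 genes that build, cut, shed or cross-link the extracellular matrix were followed in A549 cells, a human lung adenocarcinoma line, in spheroid and monolayer culture. They were taken by name from the matrix metalloproteinases (MMPs), the ADAM and ADAMTS metalloproteinases, their inhibitors and the lysyl oxidases, with earlier results of these data known. All 43 had at least 1 probe set annotated to that gene alone, among 19775 such genes on the array. In monolayer culture the cells were attached and the medium was DMEM plus 10% FBS. In spheroid culture they floated in DMEM/F12 without serum, and N2 supplement, EGF at 20 ng/ml and bFGF at 10 ng/ml were added. Both cultures ended on day 12. Attachment, base medium, serum and growth factors thus differed together, and their parts cannot be told apart. The RNA of a culture went onto 1 Affymetrix U133 Plus 2.0 array, so no difference here has a replicate check and no test was run. The study knocked down ADAM9 and ADAM10 in separate experiments to ask whether they shed Collagen XVII, and those cells were not measured on these arrays.

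MMPs are zinc endopeptidases that are made as inactive proenzymes and cut collagens, gelatin, proteoglycans and many surface proteins. TIMPs block them by binding the active site, RECK is a membrane-anchored inhibitor, and basigin, the product of BSG, induces MMPs in neighbouring cells. ADAM proteases release the outer parts of membrane proteins, among them EGF-family ligands and Collagen XVII, ADAMTS proteases cut proteoglycans and procollagens, and lysyl oxidases cross-link collagen and elastin.

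For a gene with several probe sets, the one with the largest mean log2 signal over both arrays stood for it. Signals below the array's median, 108 in monolayer and 119 in spheroid culture, were raised to that value, called the floor here. Where 1 culture was at the floor the ratio is a bound ("at least"), and where both were, no ratio is given. Over 11528 genes above the floor in both cultures the log2 ratios had a robust SD of 0.53. Over 5453 genes, the SD of the difference in log2 ratio between the 2 brightest probe sets of the same gene was 0.50. All 9 measured epithelial and A549 markers were above the floor in both cultures, summing to 310974 in monolayer and to 322128 in spheroid culture. Of these KRT7, an epithelial keratin, read 27459 and 7323, a log2 ratio of -1.91, and the other 8 were within 2-fold. Of 8 fibroblast markers, 6 stayed at the floor, LUM, PDGFRA, PDGFRB, COL1A2, COL3A1 and THY1, and all 8 together gave 1393 in monolayer and 1112 in spheroid culture. Of 6 measured leukocyte and endothelial markers, 4 stayed there, PTPRC, VWF, CDH5 and KDR, with sums of 666 and 369, and CD14, a monocyte marker, read 437 and 110.6, at least 3.66-fold lower. The free descriptions of both samples name Huh7, a hepatoma line, and PGG, against the titles and the cell line field. The 8 hepatoma markers summed to 1382 in monolayer and to 6764 in spheroid culture. Of these, 5 were higher in spheroid culture and 0 lower, by at least 42.9-fold for ALB, 2.91-fold for AHSG, at least 2.43-fold for AFP, 1.54-fold for FGB and 1.30-fold for APOA1, and GPC3, APOA2 and TTR did not pass the floor. Signal ratios of the 3′ over the 5′ control probe sets, which grow as RNA degrades, were 1.09 and 1.15 for GAPDH and 1.55 and 1.99 for ACTB in monolayer and spheroid culture. The part of these differences in the results below was not tested.

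Among the 43 genes, TIMP4 and ADAM33 were at least 3-fold higher in spheroid cultures and LOXL2 and MMP24 were at least 3-fold lower. In such bulk RNA, fewer cells with a transcript and less of it per cell cannot be told apart. Thus 2 of 43 genes were past 3-fold upwards and 2 downwards, where over all genes on the array 1.56% and 1.41% were. At least 2-fold, 6 of 43 were higher, the others being MMP1, ADAMTS10, MMP14 and TIMP1, against 4.59% of all genes. 3 of 43 were at least 2-fold lower, the third being RECK, against 3.68% of all genes. Another 21 genes had ratios within 2-fold. For 4 more, MMP10, ADAMTS6, ADAMTS9 and LOXL3, the bound was under 2-fold and the ratio itself is unknown. It is also unknown past the bounds of MMP1, ADAM33 and MMP24. As far as these bounds go, the counts past a limit are minimum counts, but other ways of processing lowered some of them. The remaining 9 (20.9%) did not pass the floor in either culture, against 33.1% of all genes. By any amount, 18 genes were higher and 16 lower. The median log2 ratio was 0.15 over these 34 genes and 0.04 over the 13229 genes above the floor in either culture. Of the 34, 5 were at the floor in monolayer alone and 2 in spheroid culture alone, which fixed their direction. Over the 27 genes above the floor in both cultures the median was -0.02, and it was 0.02 over all 11528 such genes. Division of each array by its own median, rather than the deposited scaling, shifted the log2 ratio of the median gene by -0.14. With it, 0 of the 43 genes were at least 3-fold higher and 2 were lower, and over all genes 249 were higher and 344 lower in place of 309 and 279. The plot of signals gives every gene in both cultures.

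**Figure D1:**
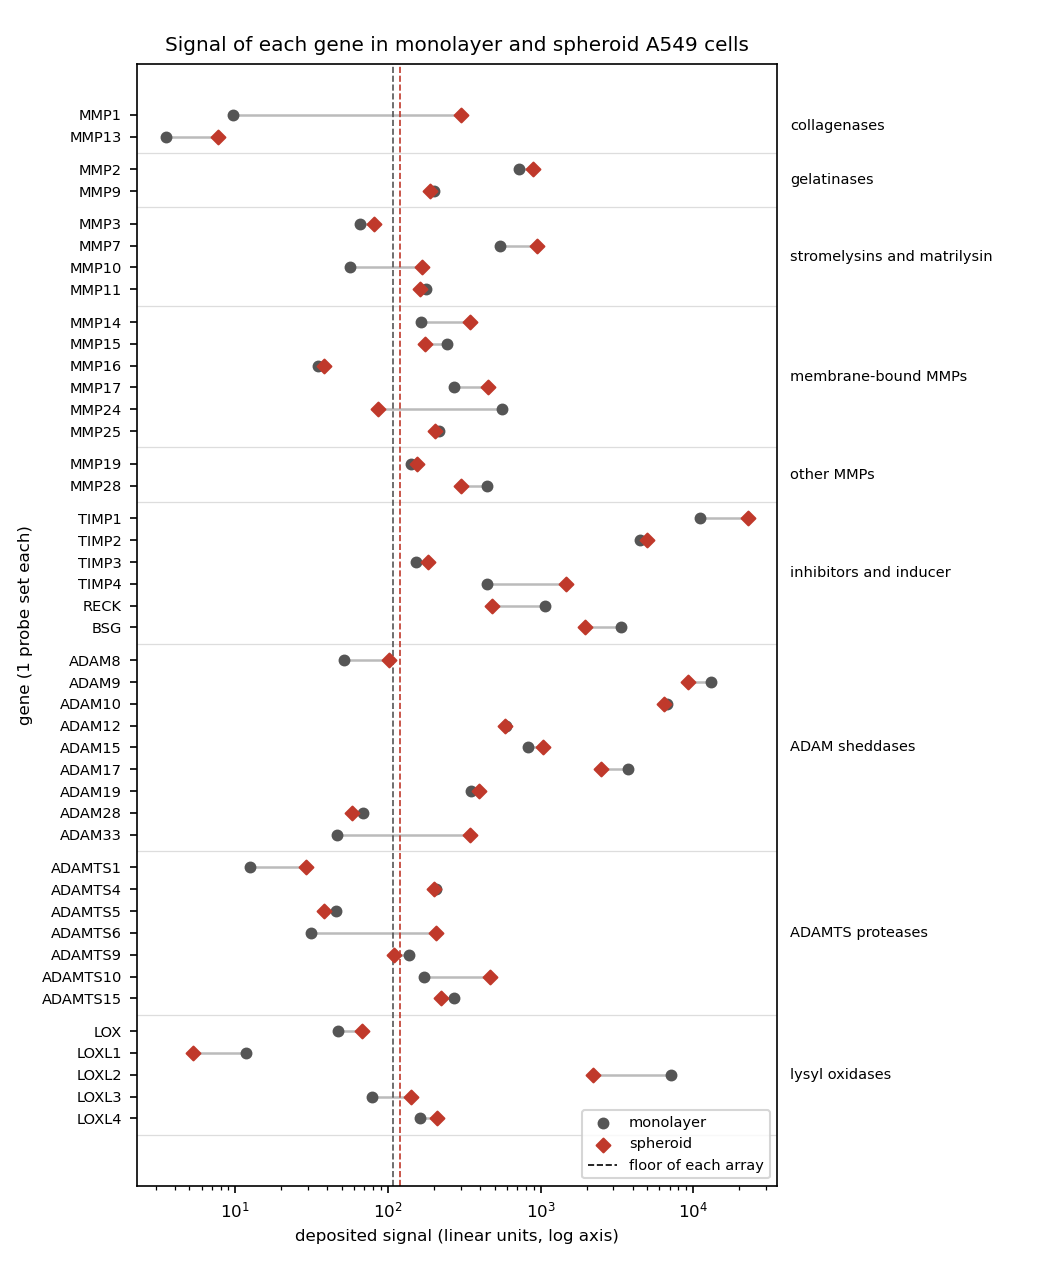
Deposited signal of each of the 43 genes (x axis, linear units on a log axis) in monolayer (grey circles) and spheroid culture (red diamonds), 1 probe set and 1 array per point, grouped by role. The dashed lines are the floors of 108 and 119, the 9 genes with both points left of them have no ratio, and MMP1 reaches from 9.58 to 299.8.

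MMPs went both ways. Of 16 MMP genes, 2 (12.5%) were at least 2-fold higher in spheroid culture and 1 (6.25%) was at least 2-fold lower. Over all genes, 4.59% were higher and 3.68% lower by as much. Another 9 MMP genes had ratios under 2-fold, and MMP10 had a bound under it. The remaining 3, MMP3, MMP13 and MMP16, had no value above the floor. MMP1, the interstitial collagenase that opens fibrillar collagen, read 9.58 in monolayer against 299.8 in spheroid culture, at least 2.77-fold higher on its only probe set. Only the spheroid signal was above its floor, so the true ratio is unknown above that bound. MMP14, the membrane-type collagenase that activates MMP2, had signals of 165 and 344, 2.08-fold higher. Its other 3 probe sets were at the floor in both cultures, so the difference rests on 1 probe set. MMP24, a membrane-type MMP best known from the nervous system, was lower, with 559 in monolayer and 86.6 in spheroid culture, at least 4.69-fold lower. Its second probe set, with 191 and 107, was also lower, by at least 1.60-fold.

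MMP7, matrilysin, an epithelial MMP without a hemopexin domain, read 546 in monolayer against 951 in spheroid culture, 1.74-fold higher. MMP10, stromelysin-2, was at the floor in monolayer with 56.6 and read 167 in spheroid culture, at least 1.54-fold higher. MMP17, a membrane-anchored MMP, read 269 and 452, 1.68-fold higher. With no floor, the log2 ratio of MMP10 was 1.56. Of the gelatinases, which cut denatured collagen and basement membrane, MMP2 read 720.2 and 896 on the probe set used and 130.3 and 323 on a second one, so both were higher. MMP9 read 200.4 and 189, a log2 ratio of -0.08. MMP11, stromelysin-3, and MMP25, a membrane-anchored MMP of leukocytes, were as close to even, at log2 ratios of -0.12 and -0.09. MMP19 read 142 and 156, a log2 ratio of 0.14, or -0.0023 after division by array medians. MMP15, a membrane-type MMP, read 244 and 174, 1.41-fold lower. MMP28, epilysin, read 443 and 302, 1.47-fold lower, and its 3 other probe sets above the floor in monolayer were all lower too, the farthest with 342 against 119.

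A group of 9 MMP genes lies side by side on chromosome 11, in the order MMP7, MMP20, MMP27, MMP8, MMP10, MMP1, MMP3, MMP12 and MMP13. Only 3 of them were above the floor in either culture, MMP7, MMP10 and MMP1. MMP7 was above it in both cultures and was higher in spheroid culture. MMP10 and MMP1 passed the floor in spheroid culture alone, so their direction was fixed by the floor. Promoters of MMP7 and MMP10 are printed because they hold the letters TGANTCA, which include the site of the AP-1 factors, dimers of FOS and JUN proteins. The letters read alike on both strands. The windows had 300 bases, from 250 before to 50 after the start. These 2 were the only ones with a match among the 23 of 43 genes whose promoter was in the RefSeq table for GRCh38.p14. Of 15384 promoters of genes on the array, 5.84% held one. The other 20 of the 43 genes, among them MMP1, MMP3 and MMP13, had no promoter there and were not searched. MMP7 and MMP10 both lie on the minus strand of chromosome 11. Capitals mark the match, which begins 67 bases before the start in each.
MMP7, chr11:102530748-102530874: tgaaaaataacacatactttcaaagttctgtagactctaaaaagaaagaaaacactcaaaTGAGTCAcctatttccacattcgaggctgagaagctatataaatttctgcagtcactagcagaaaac
MMP10, chr11:102780629-102780755: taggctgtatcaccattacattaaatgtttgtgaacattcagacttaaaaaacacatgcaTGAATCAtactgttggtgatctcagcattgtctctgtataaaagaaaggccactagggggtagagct
The match is a description of the sequence and shows no binding.

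Among the inhibitors, TIMP4 and TIMP1 were higher and RECK lower in spheroid cultures. None of the 6 genes of this class, which also holds the inducer BSG, was at the floor. TIMP4, a TIMP with a restricted tissue range, read 448 in monolayer against 1474 in spheroid culture, a 3.29-fold difference seen on a single probe set, and ranked 253 from the top among 13229 genes. TIMP1, the broad inhibitor of secreted MMPs, read 11091 and 22787, which is 2.05-fold higher, also on a single probe set. TIMP2, which both inhibits MMP2 and takes part in its activation by MMP14, had no common direction, with 4443 and 5007 on the probe set used and 4413 and 3354 on the next. TIMP3, the matrix-bound inhibitor that also blocks ADAM17, was near the floor, with 153 and 183, and a second probe set read 64.9 and 212. RECK read 1073 in monolayer and 478 in spheroid culture, 2.24-fold lower, on a probe set named _x_at, whose probes can match unrelated transcripts. Its next probe sets read 745 and 574, 287 and 134, and 235 and 99.2, and the last was at the floor in both cultures. All 4 of RECK with a value were thus lower in spheroid culture, by log2 ratios from -1.17 to -0.38. BSG read 3369 and 1949, which is 1.73-fold lower.

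Promoters of TIMP4 and MMP24 are shown because these 2 genes were past 3-fold in opposite directions. Neither holds TGANTCA. The TIMP4 promoter, on the minus strand, has 64% G and C and 12 CG pairs, and that of MMP24, on the plus strand, has 80% G and C and 37 CG pairs, while the median promoter of genes on the array had 63% and 22. Both are 300 bases of GRCh38.p14 from RefSeq, written from 5′ to 3′.
TIMP4, chr3:12158863-12159162: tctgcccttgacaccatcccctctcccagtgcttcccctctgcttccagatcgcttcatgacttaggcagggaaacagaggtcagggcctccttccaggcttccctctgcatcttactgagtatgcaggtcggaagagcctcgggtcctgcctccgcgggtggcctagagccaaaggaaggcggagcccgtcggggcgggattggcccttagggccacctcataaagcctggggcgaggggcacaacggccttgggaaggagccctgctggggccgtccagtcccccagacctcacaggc
MMP24, chr20:35226440-35226739: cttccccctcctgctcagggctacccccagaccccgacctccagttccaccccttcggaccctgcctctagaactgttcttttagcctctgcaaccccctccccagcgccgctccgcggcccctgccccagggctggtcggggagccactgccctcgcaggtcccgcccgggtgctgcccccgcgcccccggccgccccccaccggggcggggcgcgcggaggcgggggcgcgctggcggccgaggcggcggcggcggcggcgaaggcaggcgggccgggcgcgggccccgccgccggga

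On their brightest probe sets and the deposited scaling, neither of the sheddases studied for Collagen XVII, ADAM9 and ADAM10, had a higher signal in spheroid cultures. The signals are of RNA, and neither sheddase protein nor shedding was measured on these arrays. ADAM9 read 13039.5 in monolayer and 9196 in spheroid culture, 1.42-fold lower. Its second probe set, with 2230 and 1529, was lower as well, and the third, near the floor with 133 and 154, was higher. ADAM10, the main sheddase of Notch and cadherins, read 6723 and 6443, a log2 ratio of -0.06, which became 0.01 with quantile normalization. Its other 2 probe sets read 881 and 696, and 714 and 741, so no common direction was seen. ADAM17, the sheddase of TNF and of EGF-family ligands, read 3709.9 and 2471, 1.50-fold lower. A second probe set of ADAM17 read 1578 and 1123, and the third, with 235 and 281, was higher. For each of these 3 genes all 3 probe sets were above the floor in both cultures, and none differed by as much as 2-fold.

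ADAM33, an ADAM described mainly in airway mesenchymal cells, was the ADAM past 2-fold, with 46.4 in monolayer and 346 in spheroid culture, at least 3.20-fold higher. This probe set is of the _x_at kind as well, and the other probe set, with 12.2 and 12.6, was at the floor in both. ADAM12, ADAM15 and ADAM19, which shed growth factor precursors and surface receptors, had log2 ratios of -0.02, 0.32 and 0.16. ADAM19 read 350.7 and 391.7. The 5 probe sets of ADAM12 included one with 20.1 and 83.7, below the floor in both cultures. The 3 above it read 594 and 584, 266 and 232, and 183 and 205. The paper lists ADAM12 among the genes raised in spheroid culture. Of its probe sets, only the one with 20.1 and 83.7 differed by as much as the listed fold. Both probe sets of ADAM15 were higher, with 824 and 1029, and 451 and 545. ADAM8, a protease best known from leukocytes, and ADAM28 were at the floor with all their probe sets.

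**Figure D2:**
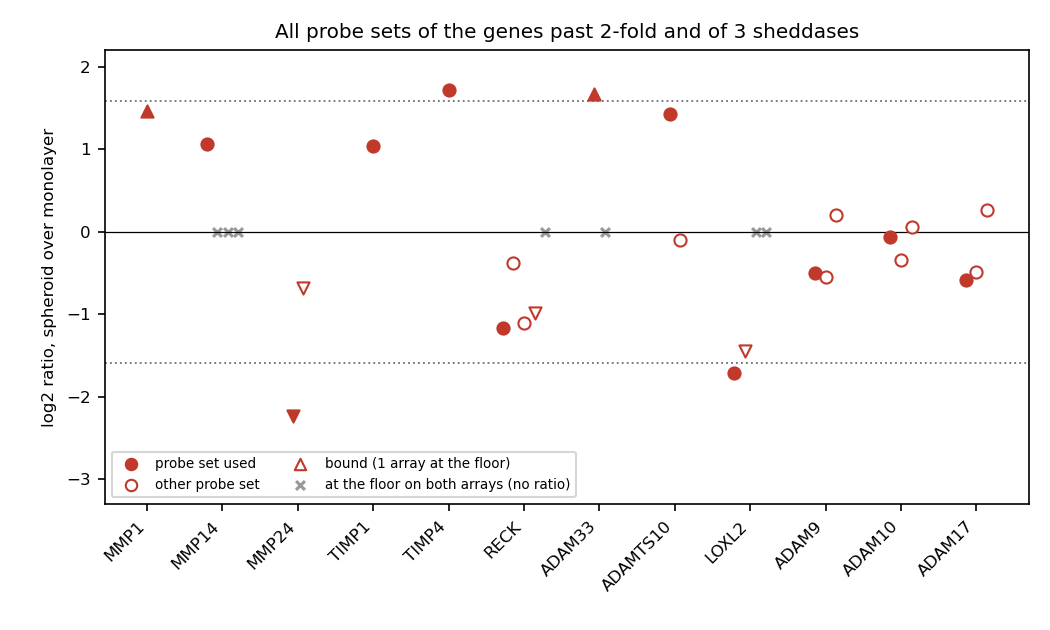
Log2 ratio of spheroid over monolayer signal (y axis) for every probe set of the 9 genes past 2-fold and of ADAM9, ADAM10 and ADAM17, with filled symbols for the probe set used, triangles for bounds and crosses for probe sets at the floor in both cultures. The dotted lines mark 3-fold, and the 2 probe sets of ADAMTS10 lie at 1.42 and -0.10.

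Of the 7 ADAMTS genes, ADAMTS10 was past 2-fold, the bound for ADAMTS6 lay just under it, and ADAMTS1 and ADAMTS5, the latter an aggrecanase, were at the floor throughout. ADAMTS10, which acts on fibrillin microfibrils, read 173 in monolayer against 464 in spheroid culture, 2.68-fold higher on a probe set of the _x_at kind. Its other probe set, with 161 and 150.5, was lower, so the direction depends on the probe set. ADAMTS6 was at the floor in monolayer with 31.3 and read 206 in spheroid culture, at least 1.91-fold higher, and a second probe set read 21.9 and 142. With no floor, its log2 ratio was 2.72. ADAMTS4, another aggrecanase, read 205 and 201, and ADAMTS15 read 269.8 and 222, log2 ratios of -0.03 and -0.28. For ADAMTS9, a proteoglycanase, the probe set used read 138 and 109.6 and another 105 and 134, so the 2 pointed in opposite directions next to the floor.

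Of the 5 lysyl oxidases, LOXL2 was past 2-fold. LOXL2, which cross-links collagen IV of basement membranes, read 7192 in monolayer against 2190.2 in spheroid culture, 3.28-fold lower. A second probe set, with 323 and 17.1, was lower too, by at least 2.71-fold, and the other 2 were at the floor in both. LOXL2 ranked 12991 of 13229 genes from the top. Of 3866 genes with a geometric mean signal from 1000 to 4000, as LOXL2 has, 3.67% were past 3-fold in either direction. LOX, the founding member, and LOXL1, which acts on elastin, gave no signal above the floor. LOXL4 read 162 and 208, 1.29-fold higher, and LOXL3 was at the floor in monolayer with 78.1 and read 141 in spheroid culture.

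**Figure D3:**
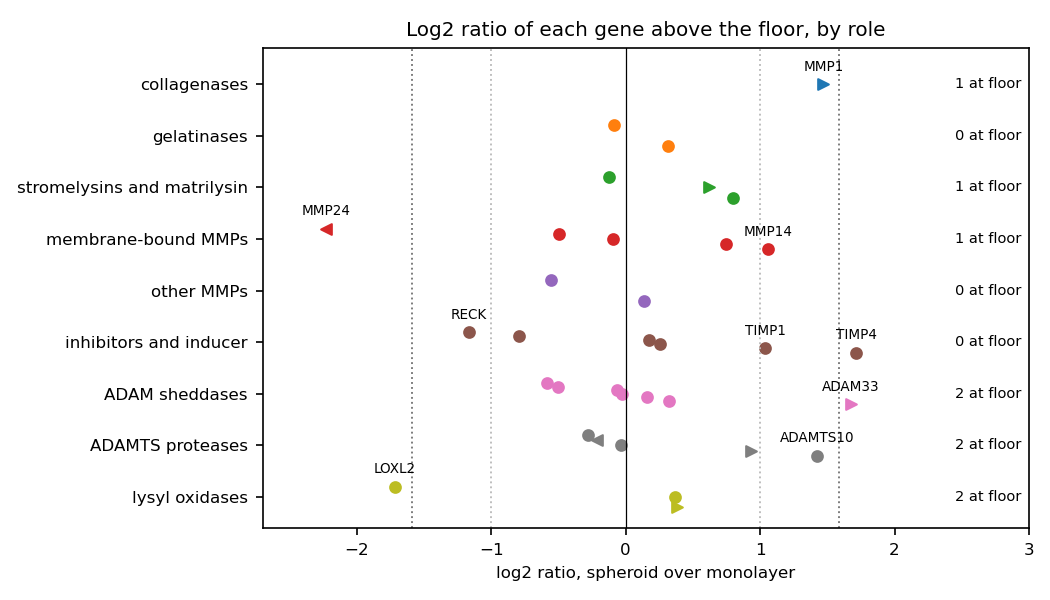
Log2 ratio of spheroid over monolayer signal (x axis) for each of the 34 genes above the floor in either culture, by role, with circles for measured ratios, triangles for bounds, colours for the role and the number of genes at the floor in both cultures at the right. Dotted lines mark 2-fold and 3-fold, and the 9 labelled genes past 2-fold are spread over 6 of the 9 roles.

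The 9 genes at the floor in both cultures include 3 MMPs, 2 ADAMs, 2 ADAMTS proteases and 2 lysyl oxidases. MMP13, collagenase-3, read 3.49 in monolayer and 7.65 in spheroid culture, and MMP3, stromelysin-1, read 65.4 and 80.6. MMP16 read 34.7 and 38.1, ADAM8 read 51.5 and 101, and ADAM28 read 69.1 and 57.7. These values lie below the median of each array, where no ratio was formed. ADAMTS1 read 12.5 and 28.9, and ADAMTS5 read 45.5 and 37.9. LOX read 46.8 and 67.3, and LOXL1 read 11.8 and 5.30.

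Of 10 genes in the set with 2 or more probe sets above the floor in both cultures, the 2 brightest lay on the same side of 0 in 8, against 3950 of 5453 over all genes. The exceptions were TIMP2 and ADAMTS10. Another, dimmer probe set pointed the other way for ADAM9, ADAM10, ADAM12 and ADAM17, and all probe sets above the floor in both cultures pointed the same way for MMP2, MMP28, RECK and ADAM15. TIMP1 and TIMP4 have 1 probe set each, so no second reading exists. In the plot of settings, the geometric mean counts probe sets at the floor in both cultures at the ratio of the floors, a log2 ratio of 0.14, which pulls genes with such probe sets towards 0 by construction. TIMP4 lay just under 3-fold, at 1.58, after division by array medians, as did ADAM33, at 1.54.

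**Figure D4:**
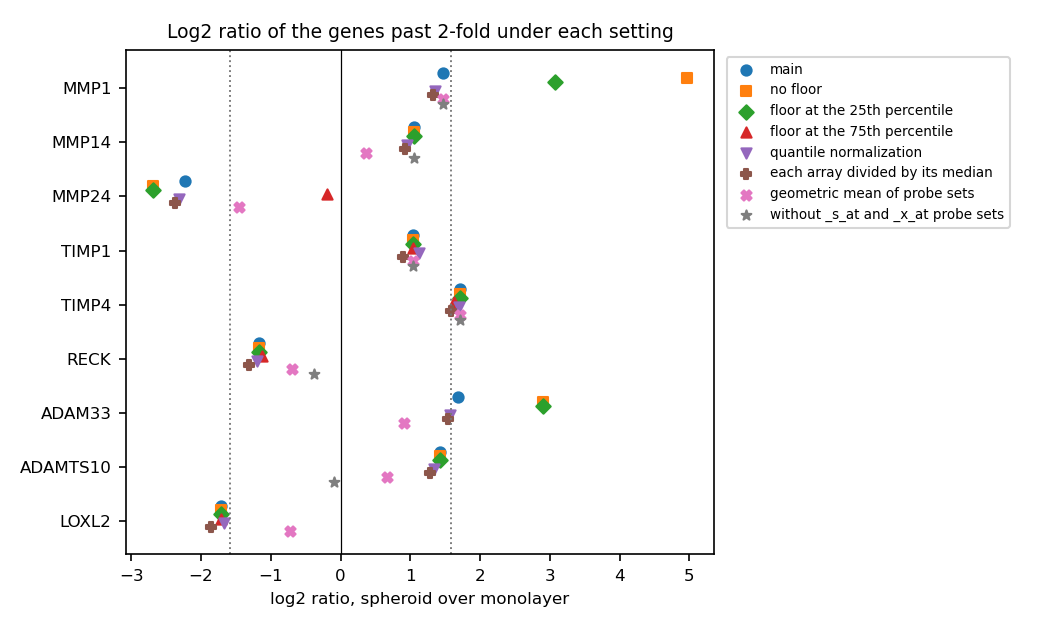
Log2 ratio of spheroid over monolayer signal (x axis) of the 9 genes past 2-fold, with 1 symbol for each way of processing the same 2 arrays and dotted lines at 3-fold. TIMP1 stays between 0.90 and 1.13 and TIMP4 between 1.58 and 1.72, MMP1 runs from 1.33 to 4.97, and ADAMTS10 crosses 0 without probe sets named _s_at and _x_at.

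Other genes of extracellular proteolysis and collagen maturation, from lists of 104 measured genes, included 4 at least 3-fold higher in spheroid cultures and 0 at least 3-fold lower, with 72 between and 28 at the floor in both. These are 3.85% and 0%, against 1.56% and 1.41% of all genes, and 26.9% at the floor, against 33.1%. SERPINE2, protease nexin-1, an inhibitor of plasminogen activators and thrombin, read 3575 in monolayer against 14748 in spheroid culture, 4.13-fold higher, and a second probe set read 30.2 and 134. It was the only one shown to pass 3-fold of 9 measured genes of plasminogen activation, though 1 other ratio is a bound. BTC, a membrane-bound EGF-family ligand released by ADAM10, read 86.8 and 338, at least 3.12-fold higher. It was the only one past 3-fold of 13 measured sheddase substrates. Of these, 3 (23.1%) reached 2-fold upwards and 2 (15.4%) downwards, against 4.59% and 3.68% of all genes. The 2 lower ones were NRG1 and HBEGF. For NRG1 the brightest probe set gave a log2 ratio of -1.36, and all its others were higher, with ratios or bounds from 0.12 to 0.79. HBEGF gave -1.14 and -0.10 on its probe sets with a value. None of the 3 higher genes had a lower probe set above the floor. Among 11 AP-1 and PEA3 factors, FOS, an AP-1 subunit, read 340.4 and 3012, 8.85-fold higher, and ETV1, a PEA3-type factor, read 239.8 and 744, 3.10-fold higher. The other ETV1 probe sets with a value gave log2 ratios of 0.41 and 1.26, within 3-fold, and a bound of 1.31. In this list too, 3 (27.3%) reached 2-fold upwards and 2 (18.2%) downwards, against 4.59% and 3.68% of all genes. The proprotein convertases FURIN, PCSK5, PCSK6 and PCSK7, named here after their values were seen, cut the propeptides of membrane-type MMPs, ADAMs and ADAMTS proteases. On their brightest probe sets all 4 were higher, with log2 ratios from 0.79 to 1.32. Of these, 2 were past 2-fold, where 4.59% of all genes were, but a list picked for its values supports nothing. PCSK5 was near the floor in monolayer, with 115, and a second PCSK7 probe set read 123 and 126.5. The other probe sets of PCSK5 and PCSK6 were at the floor in both cultures. Of 9 partners of ADAM10 and ADAM17, among them the tetraspanins and the iRhoms, 0 were past 2-fold, and 3 were higher and 6 lower. Of 15 enzymes and chaperones of collagen maturation, 0 were shown to pass 2-fold, though 1 ratio is a bound, and 5 were at the floor. Of 21 other measured MMP, ADAM and ADAMTS genes, 15 did not pass the floor and 0 were shown to pass 2-fold, though 1 ratio is a bound. Of 13 cathepsins and cystatins, 3 (23.1%) were at least 2-fold higher and 2 (15.4%) lower, against 4.59% and 3.68% of all genes. Of 9 membrane serine proteases and their inhibitors, 1 (11.1%) was shown to be at least 2-fold higher and 5 were at the floor. Another ratio in this list is a bound. COL17A1 itself was not analysed here.

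**Figure D5:**
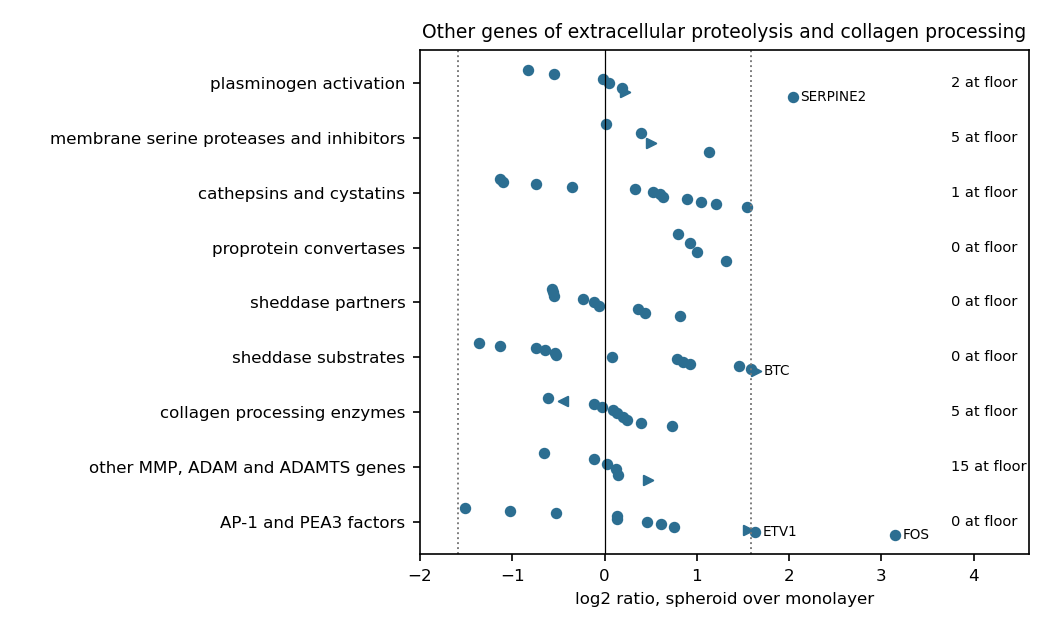
Log2 ratio of spheroid over monolayer signal (x axis) of the genes above the floor in either culture in 9 further lists, each point being 1 gene, with triangles for bounds and the number of genes at the floor in both cultures at the right. The 4 labelled genes lie past the dotted 3-fold line, FOS farthest at 3.15, and no gene lies past 3-fold on the lower side.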

How the data were processed

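RNA of 1 monolayer and 1 spheroid culture of A549 cells was measured on 1 array each. The authors deposited signal intensities on a linear scale, with MAS5 and GCOS as the tools listed in the submitters' processing notes (versions not given in the sources used here). Trimmed by 2% at each end, the mean deposited signal was 500.1 on both arrays. Groups came from the sample titles. No sample's column was left out.

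Probe sets were named through the platform annotation. It gave a single gene for 41097 of them, and for 41043 the symbol could be brought up to date through the Entrez number. Those annotated to more than 1 gene (1801) or to no gene (11777) were left out. Signals under each array's median over all but 62 control probe sets were raised to it, and log2 ratios of spheroid over monolayer were taken without further scaling. Counts used fixed limits of 3-fold and 2-fold. All 43 genes are named, those past 2-fold and ADAM9, ADAM10 and ADAM17 with all informative probe sets. Genes of the other lists are named where past 3-fold. The proprotein convertases, NRG1 and HBEGF are named besides, after their values were seen. Members, lists and limits were chosen with earlier results of these data known. With 1 array per culture no p-value was computed, and the number of arrays limits the precision. The steps were tested on simulated data, with changes larger than 3-fold planted in bright genes only. That test did not cover changes in genes near the floor. The share of promoters with a motif was counted in the RefSeq promoter table for GRCh38.p14, and protein sequences were not used here. Alternatives were other floors, 2 other scalings and 2 other choices of probe sets. Python 3.11.15, numpy 2.4.6, pandas 2.3.3 and matplotlib 3.10.9 were used.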

Additional observations from a re-analysis of the deposited data

How the results depend on the processing

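The counts of genes past a limit were small and moved with the floor and the probe sets, as the counts over all genes did. The 2 genes at least 3-fold higher became 4 with no floor, where the count over all genes went from 309 to 1312, and 4 with a 25th percentile floor (558 over all genes). They became 1 with a 75th percentile floor (109), 1 with quantile normalization (288), 0 after division by array medians (249), 1 with the geometric mean of probe sets (205) and 1 without probe sets named _s_at or _x_at (232). The 2 at least 3-fold lower became 1 with the 75th percentile floor (279 to 150 over all genes), 0 with the geometric mean (191) and 0 without _s_at and _x_at probe sets (193), and stayed 2 under the 4 other settings. The 6 at least 2-fold higher became 10 with no floor (908 to 2610 over all genes), 2 with the 75th percentile floor (401) and 3 with the geometric mean (606). The 3 at least 2-fold lower became 1 with the geometric mean (728 to 510 over all genes) and 0 without _s_at and _x_at probe sets (526). The geometric mean counts probe sets at the floor in both cultures at a log2 ratio of 0.14, so its values for LOXL2 (-0.72) and MMP14 (0.37) are pulled towards 0 by construction. Leaving out _s_at and _x_at probe sets leaves 23 of the 43 genes above the floor and removes all probe sets of MMP24 and LOXL2. The median log2 ratio of 0.15 was 0.0089 after division by array medians, which shifts every ratio by -0.14, and -0.043 with the 75th percentile floor, which leaves 14 genes. ADAMTS10 had a log2 ratio of -0.10 without _s_at and _x_at probe sets. MMP24 had -0.19 with the 75th percentile floor. Detection calls were not used here, so signals near the floor have no measured error.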
